A study of Homo sapiens with 45 samples.

Results

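The chromosome 19 zinc finger genes are protein-coding genes of GENCODE release 29 on chromosome 19 whose symbol is ZNF followed by digits only. The rule found 241 such genes listed in all 4 count tables, and a gene was kept in a table where its mean level over all libraries of that table was at least 1 CPM (CPM, the count of a gene scaled to a common library total). The numbers kept were 163 (shRNA table), 213 (hexanediol table), 82 (rescue table) and 149 (sgRNA table), out of 60624 genes listed in each. Of the 241, 219 were kept in at least 1 table and 75 in every table. All kept genes also passed the filter of the test on low counts. Because the mean ran over all groups, 51, 9, 17 and 10 of the kept genes in the 4 tables had a group below 1 CPM, and they may have been kept through another group where they were high. The genes just inside and outside the limit were ZNF490 (1.00 CPM) and ZNF566 (0.996 CPM) in the shRNA table, ZNF784 (1.15 CPM) and ZNF541 (0.948 CPM) in the hexanediol table, ZNF541 (1.04 CPM) and ZNF600 (0.986 CPM) in the rescue table, and ZNF493 (1.02 CPM) and ZNF492 (0.954 CPM) in the sgRNA table. No count was found in any library of a table for 10, 1, 33 and 7 of the 241 genes.

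The study sequenced RNA from T47D, an established luminal human breast cancer cell line, in 45 libraries, 3 in each of 15 groups. In the shRNA table, carriers of a control shRNA (shCtrl) were grown in normoxia or hypoxia, and carriers of an shRNA to ZHX2 (shZHX2) in hypoxia. All groups of the other tables were in hypoxia: an untreated control, 0.5% and 1% of 1,6-hexanediol (24 h), an alcohol that dissolves many condensates; shCtrl plus vector, and shZHX2 plus vector or plus a ZHX2 form labelled WT, PA or SA (rescue); and sgCtrl, sgZHX2, teton_control and teton_sgZHX2 (sgRNA). ZHX2 is a transcription factor with zinc fingers and homeodomains. Cells were infected with lentivirus and drug-selected; the sources used here do not give the oxygen level, the time in hypoxia or whether lines were clones, and there was only 1 cell line.

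Most genes of this family encode proteins with a row of C2H2 zinc fingers, which bind DNA, and many carry a KRAB domain at the other end. The KRAB domain recruits TRIM28 (also called KAP1), which in turn brings the histone methyltransferase SETDB1, HP1 proteins and histone deacetylases, and so directs H3K9 trimethylation to the bound site. Many of these proteins bind retroelements, and the family grew by tandem duplication, which left large arrays of related genes on chromosome 19.

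In the longest open reading frame of their transcripts, 190 of the 241 genes had a sequence matching the KRAB A box and 51 did not. The number of C2H2 fingers ranged from 0 to 36, with a median of 12. Split where neighbouring genes start over 1 Mb apart, the genes fell into 16 clusters along the chromosome, and 9 clusters of at least 5 genes held 232 of them. Cluster 5 at chr19:19668796-24129961 (GRCh38) held 37 genes, 35 with the KRAB match, and had the lowest median GC content of the large clusters, 37.5% of transcript bases. Cluster 15 at chr19:51571298-53580269 held 39 genes, and cluster 16 at chr19:55476332-58481230, next to the end of the long arm, held 57 with a median GC content of 46.6%. Near-identical copies within a cluster can share reads, so counts of closely related members are uncertain.

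The family had a small share of the RNA. Its kept genes took 0.0805% to 0.121% (shRNA), 0.276% to 0.370% (hexanediol), 0.0545% to 0.0730% (rescue) and 0.111% to 0.125% (sgRNA) of all counts per library; the tables kept different genes and were not normalised together. Per kilobase of exon, the 5 highest members of the shRNA and rescue tables were GC-rich genes without a KRAB match. ZNF787 led the shRNA table at 21.1 CPM per kb, followed by ZNF581 at 18.6 and ZNF524 at 17.5 CPM per kb. ZNF581 led the rescue table at 42.9 and the sgRNA table at 36.5 CPM per kb, whereas the KRAB gene ZNF552 led the hexanediol table at 38.8 CPM per kb. The median member stood at 0.527, 1.84, 0.537 and 0.835 CPM per kb in the shRNA, hexanediol, rescue and sgRNA tables. These levels are means over all groups of a table.

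Total counts per library ranged from 14111216 to 27217814. In the shRNA table ZHX2 stood at 3.75, 4.91 and 6.79 CPM in the shZHX2 libraries and at 16.4 to 21.6 CPM in the shCtrl hypoxia libraries (log2 fold change -1.86, edgeR adjusted p = 3.6e-10), and in the rescue table it fell from 32.0 ± 1.99 to 6.86 ± 0.545 CPM with vector and stood at 72.3 ± 1.44 CPM for the WT form, 54.0 ± 0.436 CPM for PA and 80.5 ± 2.26 CPM for SA (SD, n = 3). With guides it was not lower, at 49.6 ± 1.69 CPM in sgZHX2 against 45.1 ± 1.36 CPM in sgCtrl and 49.3 ± 1.34 CPM in teton_sgZHX2 against 47.5 ± 1.85 CPM in teton_control; RNA abundance alone cannot tell whether guides edited the locus. All 8 luminal breast markers checked passed the low-count filter in every table, and so did 1 of 4 basal, 1 of 4 fibroblast, 1 of 4 leukocyte and 0 of 2 endothelial markers in the shRNA libraries. The counts were 2, 4, 2 and 1 in the hexanediol libraries, 3, 1, 0 and 0 in the rescue libraries and 3, 2, 0 and 1 in the sgRNA libraries. Passing the filter does not mean like levels. The luminal marker TFF1 stood at 2.28 CPM in shCtrl hypoxia, 2.69 in the hexanediol control, 2501 in sgCtrl and 6202 with WT in the rescue table. FOXA1, another of them, stood at 209, 149, 235 and 135 CPM in these groups. The share of mitochondrial counts and the GC content of the counted RNA moved with the groups: hypoxia and normoxia libraries had 9.12% to 9.57% and 4.55% to 4.76% mitochondrial counts, and a mean GC content, weighted by counts, of 54.9% to 55.0% and 53.3% to 53.5%. For that reason the counts over all members are given as measured and after a correction for transcript GC content and length; other values are as measured unless said to be corrected. Since separate cultures are not named in the labels, each p-value reflects only the variation among these libraries, which may be technical.

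**Figure D1:**
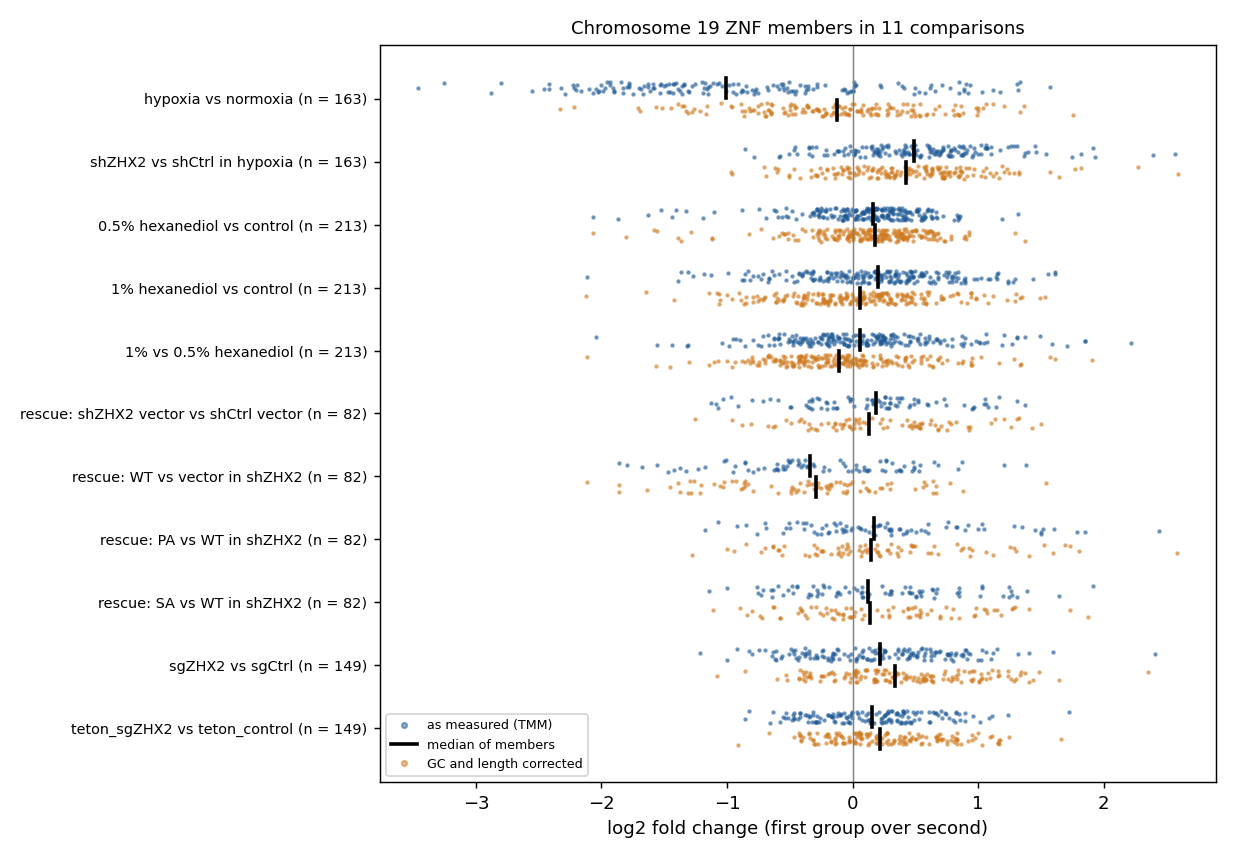
Log2 fold change (x axis, first named group over second) of every kept chromosome 19 ZNF gene in the 11 comparisons (rows), as measured with TMM scaling (blue) and after GC and length correction (orange); black bars are medians. The hypoxia median moved from -1.0 to -0.13 with the correction, while the shZHX2 median in hypoxia was 0.49 and 0.43.

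Most of the family was lower in hypoxia, mainly its AT-rich genes. In shCtrl cells 113 of 163 members were lower and 25 higher in hypoxia than in normoxia at an adjusted p under 0.05 (edgeR quasi-likelihood test, Benjamini-Hochberg over all 14903 genes tested), with a median log2 fold change of -1.0. Over all genes tested, 36.8% were lower and 43.1% higher, and the median was 0.12. After the GC and length correction 50 members were lower and 34 higher, the median was -0.13, and the background was 35.6% lower and 34.7% higher. With library size as the only scaling 134 members were lower and 15 higher, and the median of all genes tested moved to -0.36. Across the 163 members the rank correlation of fold change with GC content was 0.65, and across 14816 genes it was 0.70; genes of 1 library share its base composition, so this is a description only. In bulk RNA, fewer cells with a transcript and less of it per cell cannot be told apart. Of the 163 members, 51 had a group below 1 CPM. Those low in hypoxia may have been kept through groups where they were higher, a selection that favours a fall.

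ZNF66, a KRAB gene at chr19:20776304-20807322 (plus strand) with 14 fingers, had the largest fall as measured. It stood at 1.91, 2.20 and 2.34 CPM in normoxia and at 0.391, 0.0633 and 0.122 CPM in hypoxia, so every hypoxia library lay below every normoxia library. The log2 fold change was -3.46 (SE 0.43, adjusted p = 1.43e-10), and -2.22 after the correction. ZNF823, a KRAB gene of cluster 3, fell by 3.25 on the log2 scale (SE 0.38), from 2.28, 2.90 and 3.38 CPM to 0.261, 0.253 and 0.365 CPM, and had a corrected log2 fold change of -2.33. Both ZNF66 and ZNF823 were below the 1 CPM limit in hypoxia and were kept through groups where they were higher. ZNF146, a finger-only gene at chr19:36214602-36238774 (plus strand), was better covered, at 16.2, 14.6 and 15.9 CPM in normoxia and 1.76, 2.28 and 2.62 CPM in hypoxia. Its log2 fold change was -2.80 (SE 0.14, adjusted p = 5.34e-26) and -1.69 after the correction. ZNF507 (-2.88, corrected -1.28) and ZNF600 (-2.56, corrected -1.39) completed the 5 largest falls.

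The 5 largest rises were of another kind. ZNF358, ZNF579, ZNF444, ZNF580 and ZNF865 had no KRAB match and transcripts of 61.7% to 71.1% GC. ZNF358 at chr19:7515292-7521026 (plus strand) rose from 5.4, 7.42 and 6.33 CPM to 19.1, 18.3 and 19.8 CPM, a log2 fold change of 1.58 (SE 0.10, adjusted p = 1.88e-21). ZNF444, which binds an element of an endothelial scavenger receptor gene and holds a SCAN domain, rose from 48.9, 55.7 and 37.7 CPM to 109.8, 121 and 124 CPM, a log2 fold change of 1.32 (SE 0.16). After the correction these 5 genes had log2 fold changes of 0.52, 0.39, 0.54, 0.43 and 0.19, all still called, and the groups of ZNF358 and ZNF444 did not overlap.

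The split by KRAB match, made after the values were seen, followed GC content. Of 123 members with the match, 94 were lower and 6 higher, with a median of -1.15, and of 40 without it 19 were lower and 19 higher, with a median of -0.20. After the correction the medians were -0.09 and -0.27, with 32 lower and 27 higher of the 123 and 18 lower and 7 higher of the 40. By cluster, 23 of 25 members of cluster 5, 29 of 33 of cluster 15 and 14 of 15 of cluster 9 were lower as measured, and 6, 10 and 4 after the correction. Cluster 16 had 19 lower and 15 higher of 46, and 13 and 13 after the correction. ZNF91, a KRAB gene known for binding SVA retroelements, went from 6.02 ± 0.798 to 2.71 ± 0.197 CPM (SD, n = 3), a log2 fold change of -1.15 as measured and of 0.53 after the correction, called in both (adjusted p = 1.5e-08 and 0.0056). ZNF93, a repressor of LINE-1 elements, had -1.98 and -0.70. ZNF274, which recruits SETDB1 to its own family's genes, had -0.31 and -0.46, and ZNF473, a factor of histone RNA processing, had -1.49 and -1.27.

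**Figure D2:**
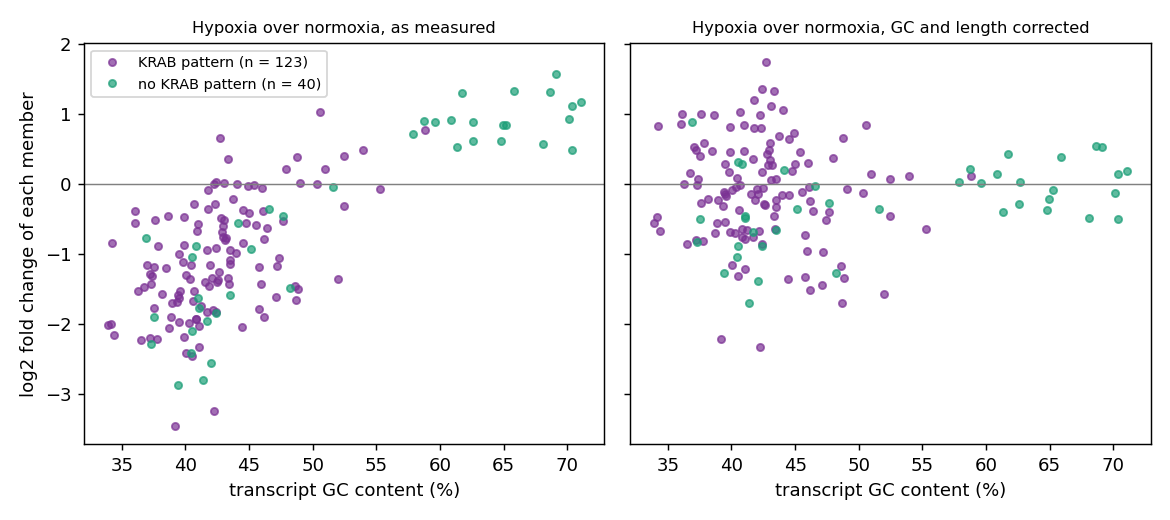
Log2 fold change of each of the 163 members in hypoxia over normoxia (y axis) against the GC content of its transcript (x axis, %), as measured (left) and after GC and length correction (right), for members with (purple, n = 123) and without (green, n = 40) a KRAB match. As measured, members above 60% GC lie above 0 and most below 45% GC lie below it; after the correction this slope is gone and the spread among members remains.

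Other chromosome 19 genes moved the other way as measured. Of 714 protein-coding chromosome 19 genes outside the family, 596 were higher and 51 lower in hypoxia (median 0.64), and 230 and 309 after the correction (median -0.07). Of 184 ZNF genes on other chromosomes, kept by the same rule, 96 were lower and 60 higher (median -0.46), and 75 and 43 after the correction (median -0.16).

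The partners of KRAB proteins were read from lists chosen for this purpose. TRIM28, the corepressor itself, was at 479.8 ± 39.5 CPM in normoxia and 711 ± 7.54 CPM in hypoxia, a log2 fold change of 0.57 as measured and -0.30 after the correction, called in both directions. SETDB1, its methyltransferase, was lower with and without the correction (-0.29 and -0.36). Of 18 genes of the KAP1 and H3K9 methylation list, 10 were lower and 5 higher, and 13 and 3 after the correction. All 8 genes of the HUSH complex and MORC list, which silences retroelements together with SETDB1, were lower, with a median of -1.84; 6 were lower and 0 higher after the correction, with a median of -0.90. RESF1, a SETDB1 cofactor, had the largest fall of that list, -3.75 as measured and -2.26 corrected. It went from 4.60 ± 0.673 CPM to a near-floor 0.339 ± 0.138 CPM (SD, n = 3), so the size of the fall is imprecise. Of 13 NuRD deacetylase genes 8 were lower and 4 higher, and of 11 other chromatin regulators of ZNF loci 5 were lower and 3 higher; after the correction these counts were 7 and 3, and 6 and 3.

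The ZHX2 hairpin in hypoxia was followed by higher levels across the family. Of 163 members, 80 were higher and 6 lower in shZHX2 than in shCtrl hypoxia libraries, with a median log2 fold change of 0.49. Over all genes tested, 33.6% were higher and 33.2% lower, and the median was 0.02. The counts were 73 and 6 after the correction, with a median of 0.43 and a background of 33.8% and 31.9%. With library size as the only scaling 112 were higher and 1 lower, and the median of all genes tested moved to 0.25. The summed level of the members was 972 ± 19.2 CPM in shCtrl hypoxia, 1202 ± 20.8 CPM in shZHX2 hypoxia and 959.8 ± 16.9 CPM in shCtrl normoxia (SD, n = 3). Mitochondrial counts also moved, to 11.9% to 12.4% with shZHX2; their part in the result was not tested. This comparison shares the shCtrl hypoxia libraries with the hypoxia comparison. It also shares the 51 members with a group below 1 CPM. Those low in shCtrl hypoxia may have been kept through normoxia or shZHX2 libraries, a selection that favours a rise.

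ZNF805, a KRAB gene with 13 fingers at chr19:57240685-57255135 (plus strand), had the largest rise. It stood at 0.717, 0.443 and 0.547 CPM in shCtrl hypoxia and 2.89, 2.61 and 4.69 CPM in shZHX2 hypoxia, with 1.82, 1.67 and 1.95 CPM in normoxia. All 3 shZHX2 libraries lay above all 6 others. Its shCtrl hypoxia level was below the 1 CPM limit, so ZNF805 was kept through groups where it was higher. The log2 fold change was 2.57 (SE 0.30, adjusted p = 4.54e-11) and 2.59 after the correction. ZNF599, a KRAB gene of cluster 8, rose from 1.63, 2.02 and 2.01 CPM to 7.80, 6.75 and 7.18 CPM (log2 fold change 1.93, SE 0.19, corrected 1.82), and its normoxia libraries were at 1.49, 1.14 and 1.78 CPM. ZNF426, a KRAB gene of cluster 2, rose from 0.651, 1.33 and 1.28 CPM to 4.22, 3.21 and 4.97 CPM (log2 fold change 1.91, SE 0.25). ZNF66 (2.40) rose from the low hypoxia levels given above to 1.03 ± 0.341 CPM, and ZNF507 (1.82) rose to 2.54 ± 0.859 CPM. The shCtrl hypoxia level of ZNF507 is not given here, and this gene too may have been kept through groups where it was higher. Both ZNF66 and ZNF507 stayed below their normoxia levels, 2.15 ± 0.221 and 5.29 ± 0.278 CPM.

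Rises were spread over the clusters. Higher members numbered 11 of 25 in cluster 5, 17 of 33 in cluster 15, 25 of 46 in cluster 16 and 8 of 15 in cluster 9, against 2 higher and 2 lower of 12 in cluster 3. After the correction the higher members numbered 6, 16, 25 and 6, against 2 higher and 3 lower in cluster 3. Members with and without a KRAB match had similar medians, 0.53 and 0.45. GC-rich members were among the risers: ZNF296, a gene without a KRAB match, rose from 18.2, 18.7 and 17.5 CPM to 33.4, 33.7 and 38.2 CPM (log2 fold change 0.95, SE 0.08, corrected 1.29). The lower members included ZNF44 (-0.86, SE 0.30), ZNF579 (-0.59, SE 0.14) and ZNF784 (-0.35, SE 0.13). ZNF784 lost its call after the correction (-0.05) and without shCtrl hypoxia replicate 3 (-0.22). ZNF genes elsewhere in the genome moved similarly, with 107 higher and 23 lower of 184 and a median of 0.44, whereas other chromosome 19 genes had 189 higher and 375 lower of 714. Both sets of counts are as measured only. Across 14816 genes the rank correlation of fold change with GC content was -0.23, and its part in this contrast was not tested. Of the HUSH and MORC list 5 were higher and 2 lower, and RESF1 rose by 2.35 on the log2 scale. That rise was from the same near-floor shCtrl hypoxia libraries, at 0.339 ± 0.138 CPM, to 1.74 ± 0.457 CPM.

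In the rescue table the ZHX2 forms were read against the same knockdown. With vector, shZHX2 cells had 33 of 82 members higher and 21 lower than shCtrl cells, with a median of 0.18 and a background of 33.9% higher and 35.3% lower. After the correction the counts were 31 and 13 (background 33.3% and 33.7%). WT ZHX2 was followed by lower levels: 37 members were lower and 17 higher than with vector, with a median of -0.34, against 34.6% lower and 35.1% higher of all genes tested. The counts were 39 lower and 13 higher after the correction (background 32.5% and 33.5%). In cluster 16, 16 of 24 members were lower and 2 higher with WT, and 14 were higher and 3 lower with the hairpin; after the correction these counts were 12 and 4, and 10 and 4. Relative to WT, PA had 32 members higher and 14 lower (median 0.17, background 33.2% and 33.7%), and SA had 29 higher and 19 lower (median 0.12, background 32.1% and 32%). After the correction PA had 31 higher and 15 lower (background 32% and 34%) and SA 33 higher and 14 lower (background 30.4% and 32.4%). With library size as the only scaling PA had 46 higher and 11 lower, and the median of all genes tested moved from 0.00 to 0.25. These comparisons share their vector or WT libraries. ZNF genes on other chromosomes had 76 of 155 lower and 34 higher with WT over vector, and 80 and 24 after the correction. Mitochondrial counts were 0.312% to 0.333% with WT and 0.749% to 1.26% in the other groups; their part in the result was not tested. Of the 18 genes of the KAP1 and H3K9 methylation list, 9 were higher and 6 lower with WT over vector, and 9 and 2 after the correction; UHRF1, which reads H3K9 methylation, rose by 1.32 on the log2 scale, and the H3K9 methyltransferase SUV39H1 fell by 0.42.

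ZNF805, ZNF841, ZNF460 and ZNF254 were picked for a closer view after their values were seen, 3 for being low with WT and 1 for the opposite pattern. Those 3 were below 1 CPM on average with WT, so they were kept through groups where they were higher. For ZNF805 the libraries stood at 1.11, 0.785 and 0.794 CPM in shCtrl with vector, 2.63, 2.08 and 2.25 CPM in shZHX2 with vector, 0.898, 0.585 and 0.455 CPM with WT, 3.47, 3.76 and 3.59 CPM with PA and 3.01, 2.39 and 2.13 CPM with SA. Vector, PA and SA libraries all lay above shCtrl and WT libraries, and PA lay above the other 2. The log2 fold changes were 1.37 (SE 0.23) for the hairpin, -1.79 (SE 0.25) for WT over vector, 2.44 (SE 0.23) for PA over WT and 1.92 (SE 0.24) for SA over WT.

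ZNF841, a KRAB gene with 20 fingers at chr19:52064466-52095765 (minus strand), had 1.22, 1.13 and 1.45 CPM in shCtrl, 2.42, 3.71 and 2.29 CPM with vector, 0.851, 0.760 and 0.683 CPM with WT, 2.40, 2.02 and 2.20 CPM with PA and 2.55, 2.00 and 2.68 CPM with SA. Its log2 fold changes were 1.14, -1.86, 1.51 and 1.65 in the same order, and WT libraries lay below all others. ZNF460, a KRAB gene at chr19:57280051-57293569 (plus strand), differed in that the hairpin alone left it at 1.56 ± 0.0865 CPM against 1.58 ± 0.217 CPM (log2 fold change -0.01, SE 0.22, adjusted p = 0.982). With WT it stood at 0.709, 0.292 and 0.967 CPM, below the libraries with vector at 1.46, 1.63 and 1.59 CPM, with PA at 1.78, 1.90 and 2.44 CPM and with SA at 1.59, 1.51 and 1.71 CPM. Its log2 fold changes were -1.23 for WT over vector, 1.60 for PA over WT and 1.27 for SA over WT.

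ZNF254, a KRAB gene at chr19:24033405-24129961 (plus strand), ran the other way. It had 3.38, 3.73 and 3.50 CPM in shCtrl, 2.02, 1.58 and 1.84 CPM with vector, 4.87, 4.62 and 4.61 CPM with WT, 2.19, 3.06 and 3.11 CPM with PA and 2.51, 1.66 and 2.17 CPM with SA. The log2 fold changes were -0.97 (SE 0.17) for the hairpin and 1.38 (SE 0.17) for WT over vector, and -0.67 and 0.88 after the correction. Other members with a fall of over 1 on the log2 scale with the hairpin included ZNF627, from 8.54, 8.29 and 10.8 CPM to 4.04, 4.75 and 4.74 CPM (-1.03, SE 0.11), and ZNF700 (-1.13) and ZNF845 (-1.07).

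**Figure D3:**
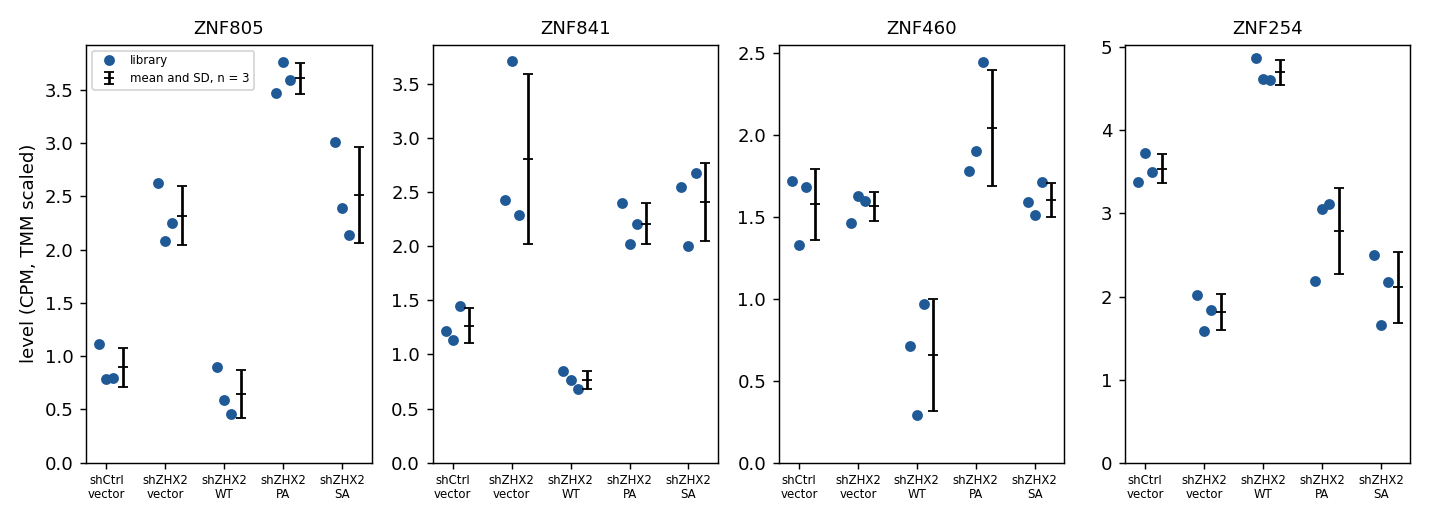
Level of ZNF805, ZNF841, ZNF460 and ZNF254 (y axis, CPM with TMM scaling) in each rescue library (points) of the 5 groups (x axis), with the mean and SD of 3 libraries beside them. ZNF805 and ZNF841 are low with shCtrl and WT, ZNF460 is low with WT alone, and ZNF254 is high with shCtrl and WT.

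ZNF805, ZNF841 and ZNF460 were picked for being low with WT, so their moving together there follows from that choice. With the hairpin alone ZNF460 was not called. Other members were low with WT too, such as ZNF550, at 0.473, 0.468 and 0.398 CPM against 1.41, 1.13 and 1.23 CPM with vector. The promoters of ZNF805, ZNF841 and ZNF460 are shown as a description only. Each is 250 bases before to 50 after the start in RefSeq (GRCh38.p14), read 5′ to 3′ on the gene's strand, and capitals mark matches to ACGTG or GCGTG on either strand, the core letters bound by hypoxia-inducible factors.
ZNF805: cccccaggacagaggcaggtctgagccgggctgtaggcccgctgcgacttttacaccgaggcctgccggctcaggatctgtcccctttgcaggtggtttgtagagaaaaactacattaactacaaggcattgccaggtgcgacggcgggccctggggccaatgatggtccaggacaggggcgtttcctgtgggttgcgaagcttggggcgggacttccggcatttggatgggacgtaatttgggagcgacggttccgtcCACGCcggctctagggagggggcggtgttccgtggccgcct
ZNF841: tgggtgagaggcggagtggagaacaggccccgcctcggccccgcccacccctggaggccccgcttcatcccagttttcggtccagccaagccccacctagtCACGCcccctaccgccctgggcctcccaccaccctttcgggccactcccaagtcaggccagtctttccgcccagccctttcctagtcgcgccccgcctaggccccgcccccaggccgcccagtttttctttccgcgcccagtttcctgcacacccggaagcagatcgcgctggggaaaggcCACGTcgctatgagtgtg
ZNF460: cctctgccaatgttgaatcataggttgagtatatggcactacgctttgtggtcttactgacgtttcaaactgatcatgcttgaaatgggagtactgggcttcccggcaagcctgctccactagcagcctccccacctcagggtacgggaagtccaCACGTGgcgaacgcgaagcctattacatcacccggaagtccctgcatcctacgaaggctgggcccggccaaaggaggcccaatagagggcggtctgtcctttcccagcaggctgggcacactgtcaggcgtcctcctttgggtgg
They lie at chr19:57240382-57240681 (plus strand), chr19:52095716-52096015 (minus strand) and chr19:57279732-57280031 (plus strand), with 62.7%, 68.3% and 57% GC. ZNF805 held 1 match, ZNF841 held 2, and the match in ZNF460 reads ACGTG on both strands and was counted as 2. Of 192 members with a promoter in the table, out of 219, 63.0% held at least 1 match, against 48.4% of all 35116 promoters; the median promoter GC content was 60.7% and 58.7%, and the median number of CpG pairs, which each of the searched words contains, was 21 and 14. Members counted 1 promoter per gene, while the 35116 were not reduced to 1 per gene or to expressed genes. The shares are thus of unlike sets. Such letters are a description of the sequence and not a bound site.

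Guides against ZHX2 gave a mixed response with a higher side in both systems. With sgZHX2, 69 of 149 members were higher and 35 lower than with sgCtrl (median 0.22, background 37% and 36.1%), and 80 and 23 after the correction (median 0.34, background 31.7% and 34.2%). With teton_sgZHX2, 60 were higher and 30 lower than with teton_control (median 0.16, background 34.4% and 34.7%), and 66 and 22 after the correction (median 0.22, background 30.6% and 32.9%). Mitochondrial counts were lower with both guides, at 1.67% to 1.82% against 2.51% to 2.95% in the controls, and the count-weighted GC content was higher, at 52.5% to 53.1% against 51.1% to 51.3%. The rank correlation of fold change with GC content across 15667 genes was 0.57 for sgZHX2 and 0.47 for teton_sgZHX2.

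ZNF416, a KRAB gene at chr19:57571566-57578927 (minus strand), rose most. It stood at 0.635, 0.416 and 0.275 CPM in sgCtrl and 2.50, 2.09 and 2.48 CPM in sgZHX2 (2.41 on the log2 scale, SE 0.25, adjusted p = 7.78e-12). In the other system it went from 0.843, 0.518 and 0.615 CPM to 2.26, 2.37 and 1.92 CPM (1.72, SE 0.23), and the groups did not overlap in either. Both control groups were below the 1 CPM limit, so ZNF416 was kept only through the guide groups, where it was high. That selection favours a rise, so its rank and the lack of overlap are a description only. ZNF71, a KRAB gene of cluster 16, rose from 1.95, 1.92 and 1.74 CPM to 4.97, 5.95 and 6.04 CPM (1.59), and by 1.11 on the log2 scale with teton_sgZHX2. ZNF784 rose by 1.40 and 1.24 in the 2 systems. Among the falls, ZNF700 went from 8.34, 9.33 and 9.07 CPM to 4.40, 3.49 and 3.61 CPM (-1.22, SE 0.11) with sgZHX2 and fell by 0.86 with teton_sgZHX2. ZNF507 fell by 1.00 and 0.83, and ZNF430 by 0.92 and 0.66.

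The effects of the 2 guide systems, each over its own control, differed for 11 of 149 members, against 20.3% of all genes tested. This test of the difference was added after the values were seen. The median member stood at 4.39 CPM in the sgRNA table, so low counts limit the test for many members. All 11 had the larger effect with sgZHX2, among them ZNF146 and ZNF274. The share of all genes tested with the larger effect in that system was not counted, so this is not shown to be particular to the family.

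Along the chromosome, 34 of the 41 members of cluster 16 were higher and 2 lower with sgZHX2, and 24 and 1 with teton_sgZHX2. In cluster 15, 5 of 25 were higher and 9 lower with sgZHX2, and 4 and 9 with teton_sgZHX2. After the correction these counts were 24 and 5 in cluster 16 and 11 and 3 in cluster 15 with sgZHX2, so the clusters lay closer together there. As measured, members with a KRAB match had 44 higher and 28 lower of 111 with sgZHX2 (median 0.15) and those without it 25 and 7 of 38 (median 0.44). After the correction this order of the medians turned, with 65 and 11 of the 111 (median 0.43) and 15 and 12 of the 38 (median 0.04). Of other chromosome 19 genes, 531 of 701 were higher and 62 lower with sgZHX2, and 224 and 279 after the correction.

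**Figure D4:**
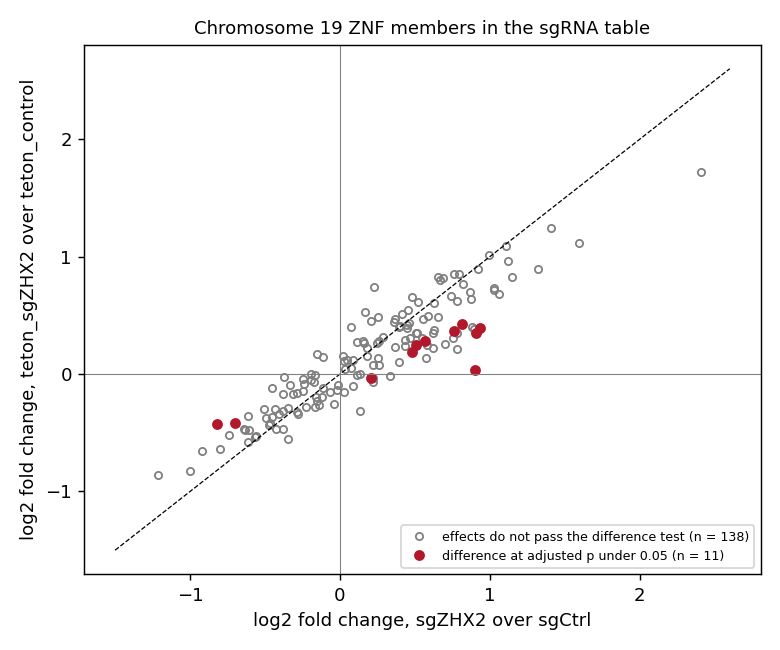
Log2 fold change of each of the 149 members with teton_sgZHX2 (y axis, over teton_control) against that with sgZHX2 (x axis, over sgCtrl); the dashed line marks equal effects and red points are the 11 members whose effects differ. The red points lie nearer to 0 on the y axis than on the x axis, and ZNF416 is the point at 2.41 and 1.72.

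The knockdown, rescue and guide tables share no libraries, and members were set side by side over those kept in both tables. Of 77 members kept in the shRNA and rescue tables, 41 were higher with shZHX2 in the first, which is 53.2% of the 77, and 33 in the second, which is 42.9%, and 22 in both, which is 53.7% of the first list and 66.7% of the second. Of 127 members kept in the shRNA and sgRNA tables, 69 were higher with the hairpin and 63 with sgZHX2, and 36 in both, which is 52.2% of the first list and 57.1% of the second. Over all 127 shared members, 49.6% were higher with sgZHX2 and 54.3% with the hairpin, close to those 2 shares. Of 82 members kept in the rescue and sgRNA tables, 33 were higher with the rescue hairpin and 35 with sgZHX2, and 20 in both. These 20 were 60.6% of the first list, against 42.7% of all 82 higher with sgZHX2. They were 57.1% of the second, against 40.2% higher with the hairpin. In that pair 15 were lower in both, 4 were higher with the hairpin and lower with sgZHX2, and 4 the reverse. The other pairs agreed less in direction. For the shRNA hairpin and sgZHX2, 13 were higher with the hairpin and lower with sgZHX2, and 4 the reverse, while 0 were lower in both. For the shRNA hairpin and the rescue hairpin, 6 were higher with the former and lower with the latter. The reverse held for 1 member, and 1 was lower in both. ZNF805 shows how far single genes can part: with sgZHX2 it stood at 4.27, 3.16 and 4.37 CPM against 5.08, 4.83 and 4.81 CPM in sgCtrl, a log2 fold change of -0.31 (adjusted p = 0.0383), and with teton_sgZHX2 it was not called (-0.17, adjusted p = 0.249). The difference between these tables was not tested, since they were fitted separately.

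Higher members outnumbered lower ones at both hexanediol doses. At 0.5%, 60 of 213 members were higher and 24 lower than in the control (median 0.16, background 19.4% and 19.6%), and 63 and 23 after the correction (background 21.3% and 17.4%). At 1%, 87 were higher and 32 lower (median 0.20, background 30.2% and 32.3%), and 59 and 47 after the correction (median 0.06, background 30.1% and 29.5%). With library size as the only scaling the counts were 81 and 17 at 0.5% and 113 and 22 at 1%, and the median of all genes tested moved to 0.12 and 0.13. The summed level was 2984 ± 42.1 CPM in the control, 3333 ± 209 CPM at 0.5% and 3393 ± 93.3 CPM at 1% (SD, n = 3). Both doses share the control libraries. At 1% all 8 luminal breast markers were lower, with a median of -2.99, and mitochondrial counts were 4.37% to 4.56% against 5.54% to 5.73% in the control; the part of these shifts in the result was not tested. Of the KAP1 and H3K9 methylation list 9 of 18 were lower and 3 higher at 1%, among them UHRF1 (-4.42) and CBX5, an HP1 protein (-1.94), and 9 and 5 after the correction. TRIM28 was not called as measured (0.01, adjusted p = 0.899) and was called higher after the correction (0.51, adjusted p = 1.21e-05). Other chromosome 19 genes had 396 of 687 lower and 96 higher at 1%, as measured only. Across 16685 genes the rank correlation of fold change with GC content was -0.30 at 1%, and its part in these counts was not tested.

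ZNF552, a KRAB gene at chr19:57803841-57814913 (minus strand) and the most abundant member per kilobase there, changed between the doses. Its libraries were at 156.5, 169 and 162 CPM in the control, 160.5, 146 and 158 CPM at 0.5% and 36.2, 38.4 and 38.0 CPM at 1%. Control and 0.5% libraries overlapped (log2 fold change -0.07, adjusted p = 0.436), and the 1% libraries lay apart from both (-2.11 over control, SE 0.07, adjusted p = 1.93e-11, corrected -2.12). ZNF442, a KRAB gene of cluster 3, rose with each dose, from 4.45, 5.54 and 4.76 CPM to 8.51, 6.82 and 7.99 CPM and to 14.7, 14.2 and 14.4 CPM, a log2 fold change of 1.56 (SE 0.13) at 1%. ZNF222, a KRAB gene of cluster 12, rose from 2.99, 3.6 and 3.39 CPM to 10.3, 10.1 and 10.1 CPM at 1% (1.61, SE 0.14). ZNF763 (1.61), ZNF491 (1.44) and ZNF569 (1.30) were the other largest rises at 1%, and ZNF578 (-1.37), ZNF414 (-1.31) and ZNF587 (-1.27) followed ZNF552 among the falls with ZNF784 (-1.39).

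At 0.5% the largest rise was that of ZNF836, a KRAB gene with 24 fingers at chr19:52153864-52171643 (minus strand), from 6.81, 6.52 and 6.46 CPM to 18.0, 12.2 and 19.1 CPM (1.32, SE 0.17, adjusted p = 3.19e-05). The largest fall was that of ZNF578, from 2.02, 2.85 and 2.67 CPM to 0.516, 0.662 and 0.604 CPM (-2.06, SE 0.29). At 0.5% this gene was below the 1 CPM limit, so it was kept through a group where it was higher. ZNF331, a KRAB gene known for imprinted expression, fell from 7.78, 9.74 and 8.80 CPM to 3.03, 2.52 and 3.56 CPM (-1.53, SE 0.16), and stood at 6.18, 6.15 and 6.46 CPM at 1%. The 0.5% dose thus lay below both the control and the 1% libraries for this gene.

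Cluster 5 was picked after its values were seen. At 0.5%, 15 of its 31 members were lower and 3 higher; at 1%, 14 were higher and 1 lower. Between the doses, 21 were higher and 2 lower at 1% (background of that comparison 28.3% higher and 27.7% lower, and 26.2% and 26.7% after the correction). After the correction the counts were 14 lower and 3 higher at 0.5%, 9 higher and 4 lower at 1%, and 15 higher and 5 lower between the doses. ZNF90, a KRAB gene of the cluster, stood at 4.79, 5.17 and 4.57 CPM in the control, 2.64, 1.06 and 1.75 CPM at 0.5% and 9.07, 7.53 and 8.95 CPM at 1%, with no overlap between any of the 3 groups (log2 fold change 2.22 between the doses, SE 0.22, corrected 1.91). ZNF91 did not follow it, at 22.4, 21.1 and 23.7 CPM, 34.1, 32.4 and 33.8 CPM and 41.4, 36.9 and 38.2 CPM. Cluster 12 had 13 of 21 members higher and 0 lower at 0.5%, and 14 and 0 after the correction; these counts were 12 and 2 at 1%, and 7 and 3 after the correction.

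The call counts at 0.5% moved when single libraries were left out, which also leaves fewer libraries in a group. Lower members numbered 14 to 22 over all 6 such fits, so the smaller counts were not tied to 1 library. Without control replicate 1, 2 or 3, 14, 16 and 15 members were lower, against 24 with all libraries, and 9, 10 and 11 of cluster 5 were lower, against 15. Cluster 12 had 8 higher members without control replicate 1, against 13. In both doses replicate 2 had the lowest summed level, 3092 and 3286 CPM, against 3453 to 3454 and 3435 to 3458 CPM; without both 78 members were higher and 25 lower at 0.5%, 99 and 39 at 1%, and 14 of cluster 5 were lower at 0.5%. Between the doses, 66 members were higher and 49 lower in all, and 40 and 71 after the correction.

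**Figure D5:**
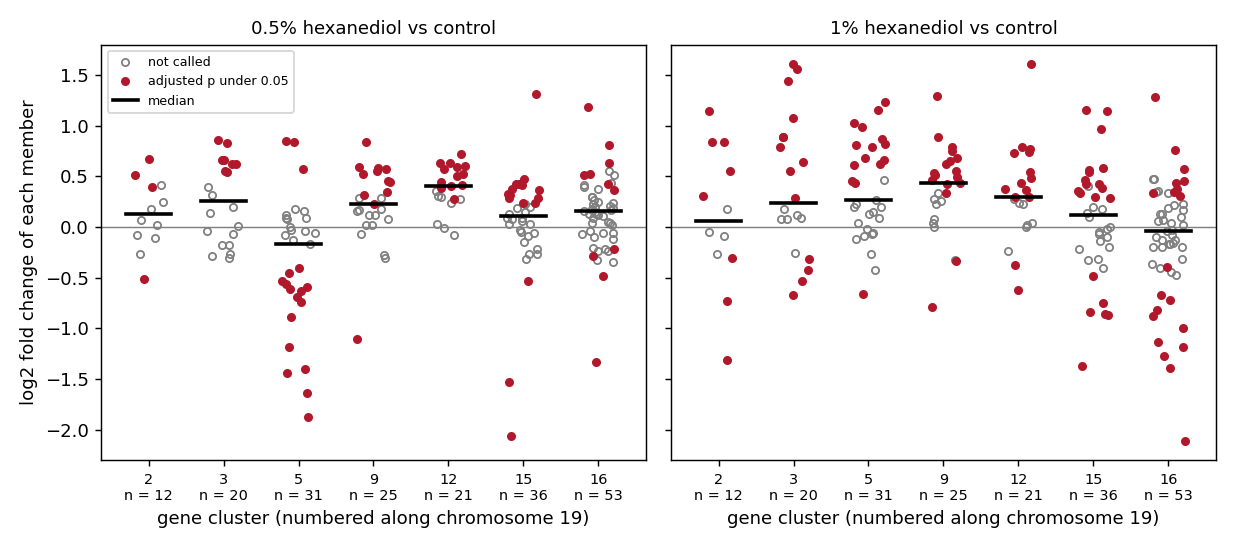
Log2 fold change of each member (y axis) with 0.5% (left) and 1% (right) hexanediol over control, by gene cluster numbered along chromosome 19 (x axis); red points are called at an adjusted p under 0.05 and bars are medians. In cluster 5 the median is -0.16 at 0.5% and 0.26 at 1%, and in cluster 12 it is 0.41 and 0.30.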

How the data were processed

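RNA of 45 T47D libraries was measured by polyA RNA sequencing as 150 bp read pairs, per the labels' protocols. The authors deposited 4 tables of whole-number counts per gene, not normalised; FastQC, HISAT2, featureCounts, DESeq2 and hg38 are named, without versions or roles, per the submitters' processing notes. The annotation, the strand setting and the treatment of reads that map to several places are not stated in these sources, so antisense, overlapping and near-identical genes are uncertain. Columns named sgNC were read as sgCtrl and teton-sgcontrol as teton_control, by their names alone.

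The main test was the quasi-likelihood test of edgeR 4.0.16 (R 4.3.3), with filterByExpr, TMM scaling and 1 robust fit per table over all its groups, on 14903 (shRNA), 16840 (hexanediol), 14302 (rescue) and 15781 (sgRNA) genes. Calls used Benjamini-Hochberg adjustment over all genes of a table, with adjusted p under 0.05, and adjusted p-values in the report come from this test. Levels are CPM from the deposited counts and the TMM library sizes. Total counts per library were 17476890 to 19480495 (shRNA), 14111216 to 17713327 (hexanediol), 18056398 to 24760885 (rescue) and 21225854 to 27217814 (sgRNA); at these depths 1 CPM is a small number of reads, so low members are imprecise. The 45 replicate pairs differed by more than counting noise (chi-square per degree of freedom 1.77 to 29.8). The largest values, 29.8 and 27.5, were of the pairs with 0.5% hexanediol replicate 2. Pairs with 1% hexanediol replicate 2 had 9.87 and 10.0, and every other pair was at or below 4.24. The method was tested on simulated data with the same fixed spread for every table and no shift in base composition. That test therefore does not cover such shifts or the larger spread of the hexanediol libraries.

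The GC and length correction added to each library an offset from a spline of its log2 CPM deviation on transcript GC content and log10 exon length (5 degrees of freedom each), known for over 99% of genes tested. Other alternatives were DESeq2 1.42.0, library size without TMM, no low-count filter, all candidates without the CPM limit, a replicate block, and each library left out. Deviations from group means correlated at over 0.1 between libraries of the same number only for 0.5% and 1% hexanediol (0.120, 0.318 and 0.116 for numbers 1, 2 and 3). Between these doses, 1% replicate 1 reached 0.168 with 0.5% replicate 3, and 1% replicate 3 reached 0.130 with 0.5% replicate 1. These values set replicate 2 apart in both doses and do not pair numbers 1 and 3. The labels name no shared batch. Genes were named by a rule: per comparison the largest rises and falls among called members with groups that did not overlap (5 each for the main comparisons, 3 each for the others), the 5 highest members per kilobase in a table, and ZNF91, ZNF93, ZNF274, ZNF331, ZNF473 and ZNF460. Genes, promoters and clusters said to be picked after their values were seen lie outside it, as do the split by KRAB match and the test between the 2 guide systems; the KRAB pattern was widened once after seeing which genes it matched. The members and lists were chosen with earlier results of these data known. The lists were KAP1 corepressor and H3K9 methylation, HUSH complex and MORC, the NuRD complex, chromatin regulators of ZNF loci, and markers of luminal, basal, fibroblast, leukocyte and endothelial cells.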

Additional observations from a re-analysis of the deposited data

Results flagged for a closer look

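The effects of sgZHX2 and teton_sgZHX2, each against its own control, differed at an adjusted p under 0.05 (edgeR quasi-likelihood test of the difference over 15781 genes) for 11 of 149 members, against 20.3% of all genes tested; this test was chosen after the values were seen. All 11 had the larger effect with sgZHX2, and no member was called in opposite directions by the 2 systems. Neither share was counted over all genes tested, so these are not shown to be particular to the family. The median member stood at 4.39 CPM in the sgRNA libraries, so low counts limit the test for many members. Among them the difference (sgZHX2 effect minus teton_sgZHX2 effect, log2 scale) was 0.26 for ZNF581 (0.51 against 0.25), -0.28 for ZNF146 (-0.70 against -0.42), 0.39 for ZNF787 (0.81 against 0.43) and 0.54 for ZNF274 (0.93 against 0.39). ZNF146 stood at 77.1, 76.1 and 79.3 CPM in sgCtrl, 46.6, 49.3 and 47.4 CPM in sgZHX2, 83.9, 80.2 and 84.7 CPM in teton_control and 62.4, 61.2 and 62.4 CPM in teton_sgZHX2. The call of ZNF274 with teton_sgZHX2 was lost without teton_sgZHX2 replicate 3. After the GC and length correction the effects of ZNF581 were 0.024 and -0.12 and those of ZNF787 were 0.11 and -0.062.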

How the results depend on the processing

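Of 1865 values of named members under other settings, 1781 kept direction and call, 66 kept direction and lost the call, and 18 reversed. Reversals after the GC and length correction were, in hypoxia, ZNF91 (0.53), ZNF787 (-0.50), ZNF524 (-0.21) and ZNF296 (-0.49); with shZHX2, ZNF787 (0.041); at 1% over 0.5% hexanediol, ZNF91 (-0.12) and ZNF146 (-0.055); for the hairpin in the rescue table, ZNF524 (-0.16) and ZNF296 (-0.082); with sgZHX2, ZNF91 (0.10) and ZNF574 (-0.15); and with teton_sgZHX2, ZNF91 (0.13), ZNF581 (-0.12), ZNF574 (-0.14) and ZNF787 (-0.062). With library size alone ZNF274 reversed with shZHX2 (0.023). Besides counts by cluster and by KRAB match that the text gives both ways, counts that moved by over 1.5 times after the GC and length correction included lower members in hypoxia (50), with the rescue hairpin (13) and with sgZHX2 (23), and higher members at 1% over 0.5% hexanediol (40) and of cluster 5 at 1% (9). DESeq2 gave 2 lower members with shZHX2, 31 lower at 1% over 0.5% and 11 higher with WT over vector; library size alone gave 15 higher in hypoxia, 1 lower with shZHX2 and 11 higher with WT. The cause of these moves was not tested.

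The replicate block, which follows the numbers although only replicate 2 stood apart, gave 67 higher and 51 lower members between the 2 hexanediol doses. It changed no call of a named member and no count of members by over 1.5 times. With the block and the GC and length correction together, 50 members were lower at 1%, 8 of cluster 5 were higher, and ZNF91 (-0.12) and ZNF146 (-0.056) reversed between the doses. Leaving out each library in turn gave 44 to 68 higher and 14 to 22 lower members at 0.5%, 9 to 13 lower of cluster 5, 8 to 15 higher of cluster 12, and 32 to 58 lower between the doses, the lowest without 1% replicate 3, against 49 with all libraries. Low counts limit members near 1 CPM.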
